A study of Mus musculus with 10 samples.

Results

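The genes described here are the 8 E2F transcription factor genes E2f1, E2f2, E2f3, E2f4, E2f5, E2f6, E2f7 and E2f8, and the pocket protein genes Rb1 and Rbl1. Their probe sets were taken by symbol alone: every probe set whose only annotated symbol was 1 of these was used. This gave 22 probe sets for 10 of the 18193 genes named on the array. The genes themselves were chosen with earlier results of these data known. RNA came from 10 cultures of primary cerebellar granule precursor cells, each measured on its own Affymetrix mouse expression array. The cerebella were taken from wild type or Bmi1 knockout mouse pups, labelled postnatal day 5 to 7 in the sample descriptions and day 7 in the culture protocol, after meninges and blood vessels had been removed. Every culture was kept for 24 hours in high-glucose medium that held 20 mM KCl and 10% fetal calf serum. Sonic hedgehog (Shh) was added to some of them for 24 hours, at a concentration labelled 3 mg/ml. The 4 groups were wild type untreated (replicates 1, 3 and 5), Bmi1 knockout untreated (replicates 2, 4 and 6), wild type with Shh (replicates 7 and 9) and Bmi1 knockout with Shh (replicates 8 and 10). The labels give neither the strain nor the number of pups behind a culture, nor whether untreated cultures were harvested at the same total age as treated ones. They call the cultures biological replicates, and the p-values cover only the spread between cultures handled this way. Replicate 3 carries a treatment note with Shh in it under an untreated title, and it was used as untreated.

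E2F proteins bind DNA as dimers with DP proteins and set when the genes of DNA synthesis and mitosis are transcribed. In resting cells the pocket proteins Rb1, Rbl1 (p107) and Rbl2 (p130) hold E2Fs in check. Cyclin D with Cdk4 or Cdk6 and cyclin E with Cdk2 phosphorylate the pocket proteins and release the E2Fs, and the CDK inhibitors, among them p16Ink4a from the Cdkn2a locus, block this step. E2f1, E2f2 and E2f3 are known as activators, E2f4 and E2f5 as repressors that work through pocket proteins, and E2f6, E2f7 and E2f8 as repressors that do not need them. Several of these genes are themselves E2F targets. Granule precursors divide in the outer layer of the young cerebellum under Shh, and Bmi1 is a Polycomb protein that holds down Cdkn2a.

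Signals are the deposited MAS5 values on a linear scale, and the arrays shared a trimmed mean of 500. Their median signal was 84.4 to 90.9 without Shh and 66.6 to 72.1 with it. Cdkn2a gave a signal of 35.8 ± 5.69 (SD, n = 3) in untreated wild type and 282 ± 16.9 (SD, n = 3) in untreated knockout cultures. Bmi1 itself kept its signal in the knockout by both of its probe sets. By 1448733_at it was 2062 ± 290 in wild type and 1941 ± 310 in knockout without Shh (SD, n = 3), and the genotypes overlapped with Shh. By 1417493_at it was 3958 ± 290 and 3610 ± 259 without Shh (SD, n = 3). With Shh 1417493_at was lower in the knockout without overlap, at 3424 ± 11.8 beside 4340 ± 248 in wild type (SD, n = 2). The sources used here do not say whether these probes lie within the deleted part, so they do not check the genotype. Granule precursor markers, 10 of 11 on the array, summed to a signal of 47438 to 58751 in untreated wild type and 51841 to 53368 with Shh. In the knockout these sums were 47683 to 51421 and 50122 to 51306. Single genes of this list moved both ways: 2 of 10 were called higher with Shh and 0 lower in each genotype. Averaged over both genotypes 3 were called higher and 2 lower, where 47.1% of all tested genes were called in either direction. Markers of other cell types were present in untreated cultures, and their summed signals were lower with Shh. The 8 endothelial and pericyte markers summed to 6103 to 7160 in untreated wild type and 318 to 356 with Shh, and to 6154 to 7850 and 292 to 298 in the knockout. Pecam1, an endothelial defining gene, lay at the floor on all 4 Shh arrays. The 10 astrocyte markers went from 52976 to 67361 down to 22332 to 24257 in wild type and from 57902 to 59562 down to 27953 to 30645 in the knockout. Oligodendrocyte, microglia, fibroblast, Purkinje and interneuron marker sums were also lower on every Shh array than on every untreated array of the same genotype. So were those of postmitotic granule neurons, at 17231 to 20252 without and 14163 to 14558 with Shh in wild type and 15655 to 16076 and 13584 to 13834 in the knockout, with 4 and 2 of 5 tested genes called lower. Single markers went the other way: Ptprc of the microglia list (log2 difference 0.98 and 1.12) and Pdgfra of the oligodendrocyte list (0.62 and 0.47) were called higher in both genotypes, and Cd68 (0.75) and Gfap (0.54) in the knockout. In such bulk samples, fewer cells of a type and less RNA per cell cannot be told apart. The part of this shift in the Shh differences below was not tested.

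Promoter windows were on hand for 7 of the 10 genes (E2f1, E2f2, E2f3, E2f6, E2f7, E2f8 and Rbl1, 9 windows in all), taken from RefSeq on GRCm38.p6 and running from 250 bases before to 50 bases after each annotated start. E2f4, E2f5 and Rb1 had none. Both strands were searched for an 8-letter E2F site (TTTGGCGC, TTTCCCGC, TTTGCCGC or TTTCGCGC), for a 7-letter form (TTGGCGC or TTCCCGC, which lies within 2 of the 8-letter forms) and for the cell cycle gene homology region, or CHR (TTTGAA). The 8-letter site stood in 4 of the 9 windows against 2.26% of all 32851 windows, and in 15 of 34 windows of the E2F target genes listed further on. The 7-letter form was found in 4 of 9 windows and 6.81% of all windows, and the CHR letters in 3 of 9 and 17.9%. Stretches are shown of the 5 genes whose windows held an E2F match, and of E2f1 as a gene called with Shh in both genotypes whose window held none, and capitals mark every match to the letters above on either strand. E2f1 (chr2:154569427-154569526, minus strand), E2f3 (chr13:29986064-29986163, minus), E2f7 (chr10:110745189-110745438, plus), E2f8 (chr7:48881597-48881726, minus) and Rbl1 (chr2:157204535-157204634, minus) are shown up to the base before the start, and E2f2 (chr4:136172294-136172323, plus) just after it.
E2f1: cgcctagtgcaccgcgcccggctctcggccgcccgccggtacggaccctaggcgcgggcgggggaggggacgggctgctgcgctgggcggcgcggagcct
E2f2: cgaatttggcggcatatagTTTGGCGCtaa
E2f3: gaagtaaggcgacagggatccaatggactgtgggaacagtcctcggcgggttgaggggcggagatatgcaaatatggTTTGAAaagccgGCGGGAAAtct
E2f7: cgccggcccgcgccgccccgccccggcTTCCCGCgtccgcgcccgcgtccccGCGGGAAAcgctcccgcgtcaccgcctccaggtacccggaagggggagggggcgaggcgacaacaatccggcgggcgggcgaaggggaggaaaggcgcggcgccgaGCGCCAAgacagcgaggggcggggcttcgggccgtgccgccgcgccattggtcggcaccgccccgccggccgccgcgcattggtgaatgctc
E2f8: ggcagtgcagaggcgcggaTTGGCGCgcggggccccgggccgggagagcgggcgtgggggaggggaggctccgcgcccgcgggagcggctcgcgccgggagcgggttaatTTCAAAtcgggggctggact
Rbl1: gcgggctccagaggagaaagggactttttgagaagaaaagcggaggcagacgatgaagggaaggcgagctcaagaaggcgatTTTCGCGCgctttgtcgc
E2f7 held 3 E2F matches, E2f3 held an E2F and a CHR match within 30 bases before the start, E2f8 held both kinds further apart, and Rbl1 held 1 E2F match. Outside the stretches shown, the E2f3 window held a 7-letter E2F match at base 19 after the start. The second E2f2 window held a CHR match 31 bases before its start. The E2f1 and E2f6 windows held no match to these letters. A match is a description of the letters and not a site shown to be bound.

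Differences are log2 differences from a limma fit over 11405 genes, 1 probe set per gene, with the standard error (SE) of the model, and "adjusted p" is Benjamini-Hochberg adjusted over those genes. All 10 genes passed the filter on low signal, 76.1 on average, by at least 1 probe set. Of their 22 probe sets 16 passed it, and 6 did not. With Shh, 6 of the 10 genes were higher in wild type cells at an adjusted p under 0.05 and 0 were lower, in a comparison that called 14% of all tested genes higher, 19.8% lower and 33.8% in either direction. They were E2f1, E2f2, E2f6, E2f7, E2f8 and Rbl1, so the group held activators, all 3 repressors that work without pocket proteins, and 1 pocket protein. In knockout cells E2f1 and E2f7 were higher and 0 were lower, against 11% of all genes called higher, 17% lower and 28% in either direction. The median log2 difference over the 10 genes was 0.48 in wild type and 0.33 in knockout cells, beside -0.01 over all tested genes in both. In each genotype 8 of the 10 genes had every Shh array above every untreated array, as did 27.3% of all genes in wild type and 26.1% in knockout cells.

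**Figure D1:**
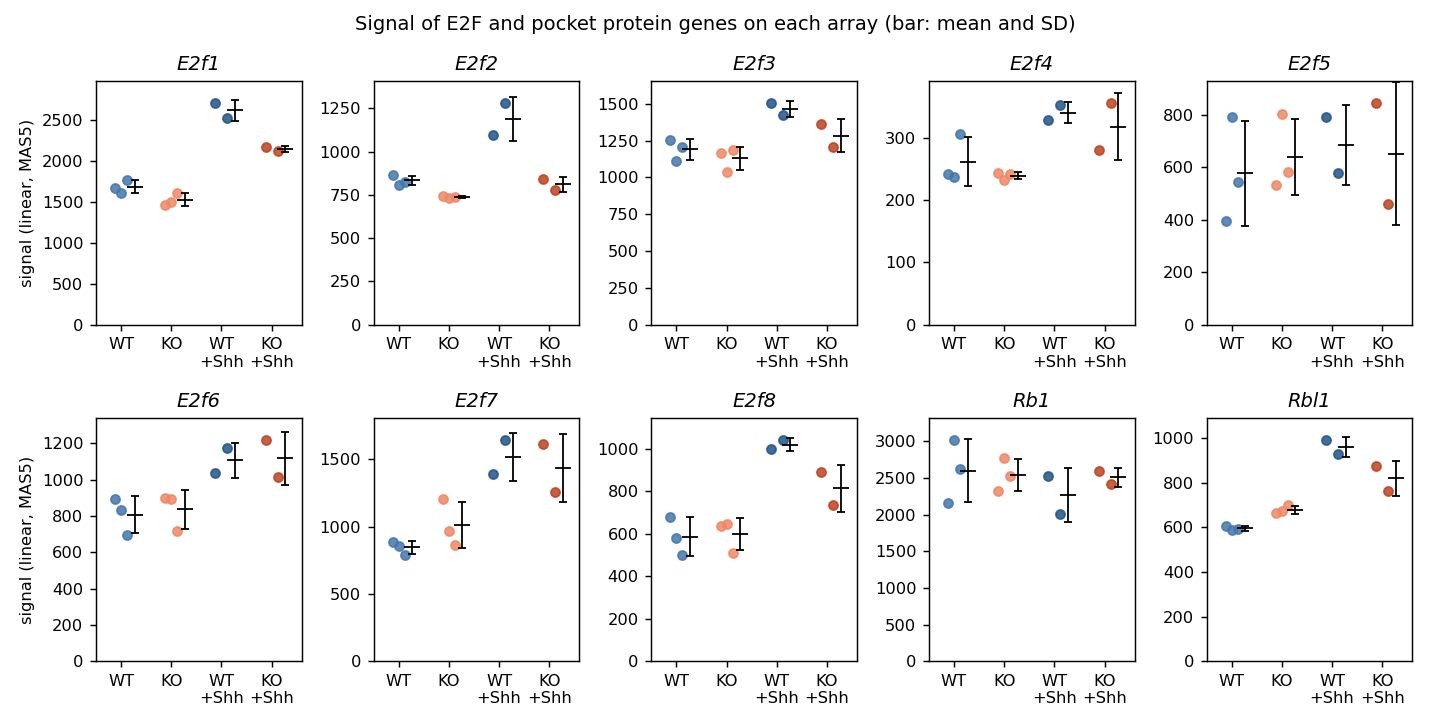
Linear MAS5 signal (vertical axes, from 0) of the 10 genes by the probe set used for each, in wild type (WT) and Bmi1 knockout (KO) cultures without and with Shh. Points are single arrays and bars the mean and SD of 3 untreated or 2 Shh arrays. E2f1, E2f2, E2f3, E2f8 and Rbl1 had their highest signals on the wild type Shh arrays, while E2f5 and Rb1 overlapped across all groups.

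Among the activators, E2f1, which drives entry into S phase and can also induce apoptosis genes, rose with Shh in both genotypes. By probe set 1431875_a_at its signal was 1671, 1618 and 1773 in untreated wild type, 1467, 1503 and 1617 in untreated knockout, 2711 and 2533 in wild type with Shh, and 2172 and 2127 in knockout with Shh. None of these 4 groups overlapped, and their order was wild type with Shh, knockout with Shh, wild type, knockout, although the lowest untreated wild type and the highest untreated knockout array both round to a signal near 1618. With Shh E2f1 rose by a log2 difference of 0.64 ± 0.09 (SE) in wild type (1.55-fold, adjusted p = 0.000868, both Shh arrays above all 3 untreated) and by 0.49 ± 0.09 in knockout cells (1.41-fold, adjusted p = 0.00407). Its second tested probe set, 1417878_at, read 1642, 1090 and 1217, then 1123, 1219 and 1266, then 1861 and 2218, and last 1612 and 1632 in the same order of groups. That probe set ran the same way with a wider spread, most of it from replicate 1, and its log2 difference was 0.65 in wild type (adjusted p = 0.0226 over all 22519 tested probe sets) and 0.43 in the knockout, where it was not called (adjusted p = 0.108). With all probe sets averaged, the E2f1 call in the knockout was lost too (adjusted p = 0.143). The remaining probe set, 1447840_x_at, lay below the filter at signals of 7.75 to 84.9.

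E2f2, an activator whose roles overlap those of E2f1, had the largest average difference between genotypes of the 10 genes. By probe set 1436434_at its signal was 865, 809.6 and 824 in untreated wild type, 742, 734 and 737 in untreated knockout, 1097 and 1279 in wild type with Shh, and 840.1 and 779.6 in knockout with Shh. Both Shh arrays of the knockout lay within or below the range of untreated wild type cells. In wild type cells E2f2 rose by a log2 difference of 0.51 ± 0.10 (1.42-fold, adjusted p = 0.00362), and in the knockout the difference was 0.13 ± 0.10 (adjusted p = 0.337, 95% interval -0.08 to 0.35). The change in wild type cells missed the threshold when all probe sets of a gene were averaged (adjusted p = 0.0570). The second probe set, 1455790_at, gave lower signals of 402, 349 and 352 in untreated wild type, 256, 185 and 150.1 in untreated knockout, 407 and 470.2 in wild type with Shh and 275 and 251 in knockout with Shh. Here every knockout array lay below every wild type array, with or without Shh, and the log2 difference with Shh was 0.25 in wild type (adjusted p = 0.394) and 0.45 in the knockout (adjusted p = 0.147). Both probe sets gave the genotypes in the same order, but by 1436434_at the difference with Shh was larger in wild type and by 1455790_at it was larger in the knockout.

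E2f3, an activator that many cell types need to proliferate, passed in neither genotype. Its signal by 1434564_at was 1251, 1115 and 1207 in untreated wild type, 1165, 1039 and 1185 in untreated knockout, 1504 and 1427 in wild type with Shh, and 1362 and 1204 in knockout with Shh. The Shh arrays lay above the untreated ones in each genotype, but the knockout arrays with Shh overlapped untreated wild type. The log2 difference with Shh was 0.30 ± 0.10 in wild type (adjusted p = 0.0537) and 0.18 ± 0.10 in knockout cells (adjusted p = 0.229). With arrays of consecutive numbers, 1 of each genotype, taken as pairs, the wild type value passed (adjusted p = 0.0472). Averaged over both genotypes the difference was 0.24 ± 0.07 (adjusted p = 0.0242), a call that was lost without replicate 4, 7 or 8 (adjusted p up to 0.0974). The dimmer probe set 1427462_at spread from 81.0 to 189 with all groups overlapping.

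Of the repressors that act through pocket proteins, E2f4 is the form that sits with p130 and p107 on promoters in resting cells. Its 1 probe set, 1451480_at, read 242, 237 and 306 in untreated wild type, 243, 232 and 242 in untreated knockout, 328 and 352 in wild type with Shh, and 279.9 and 356 in knockout with Shh. Shh arrays were above untreated ones within each genotype, while the genotypes overlapped in both conditions. The log2 differences with Shh were 0.39 ± 0.14 (adjusted p = 0.0622) and 0.40 ± 0.14 (adjusted p = 0.0631) in wild type and knockout cells. Neither passed alone, and their average of 0.39 ± 0.10 did (adjusted p = 0.0102).

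E2f5, the closest relative of E2f4, was the most variable gene of the set. By 1417444_at its signal was 397, 793 and 543 in untreated wild type, 533, 805 and 584 in untreated knockout, 794 and 579 in wild type with Shh, and 845 and 459 in knockout with Shh. Replicates of a single group lay as far apart as 397 and 793, so that every pair of groups overlapped. The log2 difference with Shh was 0.29 ± 0.34 in wild type (95% interval -0.48 to 1.05) and -0.02 ± 0.34 in the knockout (-0.78 to 0.75), intervals too wide to show a change of the size seen in E2f1. Its other probe sets, 1460207_s_at (417 to 615 over the 10 arrays) and 1447625_at (293 to 678), overlapped between all groups as well.

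All 3 repressors that work without pocket proteins were higher with Shh in wild type cells. E2f7 and E2f8 are atypical E2Fs that bind DNA without a DP partner and shut down E2F targets late in S phase. By 1437187_at the signal of E2f7 was 889.6, 855 and 793 in untreated wild type, 1205, 965 and 868 in untreated knockout, 1392 and 1644 in wild type with Shh, and 1617 and 1258 in knockout with Shh. The Shh arrays stood above the untreated ones in both genotypes, and the genotypes overlapped. E2f7 rose by a log2 difference of 0.84 ± 0.16 in wild type (1.79-fold, adjusted p = 0.00419), the largest log2 difference of the 10 genes, and by 0.51 ± 0.16 in the knockout (1.42-fold, adjusted p = 0.0456). The call in the knockout was lost with the paired arrays (adjusted p = 0.0533), and without any one of replicates 1, 3, 4, 5, 6, 7, 8 and 9, with an adjusted p of up to 0.302 without replicate 8.

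E2f8 read 681, 582 and 500.2 in untreated wild type by 1436186_at, 638, 646 and 511 in untreated knockout, 999 and 1043 in wild type with Shh, and 893 and 737 in knockout with Shh. Every Shh array exceeded every untreated array, and with Shh the wild type arrays exceeded the knockout ones. In wild type cells E2f8 rose by 0.81 ± 0.16 on the log2 scale (1.75-fold, adjusted p = 0.00448), and the knockout value of 0.45 ± 0.16 did not pass (1.36-fold, adjusted p = 0.0647). Its dim probe set 1444319_at, at 3.37 to 119.6, was not tested.

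E2f6 lacks a pocket protein binding region and represses as part of a Polycomb complex, PRC1.6. By 1448835_at its signal was 894, 834 and 697 in untreated wild type, 902, 892 and 715 in untreated knockout, 1039 and 1174 in wild type with Shh, and 1219 and 1015 in knockout with Shh. Untreated arrays of both genotypes covered the same range, as did the Shh arrays at a higher level. E2f6 rose by 0.46 ± 0.15 in wild type (1.37-fold, adjusted p = 0.0455), and the knockout difference was 0.42 ± 0.15 (1.34-fold, adjusted p = 0.0700). The wild type call was lost without any one of replicates 2, 3, 4, 5, 7 and 9, with an adjusted p of up to 0.231 without replicate 9. A second probe set, 1437914_at, lay below the filter at 32.4 to 75.4.

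Of the pocket proteins, Rb1 is the most general brake on the activator E2Fs. By 1417850_at its signal was 2158, 3019 and 2619.8 in untreated wild type, 2325, 2771 and 2524 in untreated knockout, 2525 and 2004 in wild type with Shh, and 2597 and 2419 in knockout with Shh. All groups overlapped. The log2 difference with Shh was -0.19 ± 0.16 in wild type (adjusted p = 0.379, 95% interval -0.56 to 0.16) and -0.02 ± 0.16 in knockout cells (-0.38 to 0.34). With all its probe sets averaged, Rb1 was instead called lower with Shh in the knockout (-0.42 ± 0.13, adjusted p = 0.0488) and over both genotypes (-0.33 ± 0.09, adjusted p = 0.0180).

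Rbl1, p107, is both a partner of E2Fs and the product of an E2F target gene. Its signal by 1424156_at was 605, 587 and 592 in untreated wild type, 665, 674 and 699 in untreated knockout, 991 and 929 in wild type with Shh, and 875 and 764 in knockout with Shh. The 4 groups did not overlap, and the order of the genotypes turned: untreated knockout lay above untreated wild type, and knockout with Shh below wild type with Shh. In wild type cells Rbl1 rose by 0.69 ± 0.09 on the log2 scale (1.61-fold, adjusted p = 0.000607), and in the knockout the difference was 0.27 ± 0.09 (adjusted p = 0.0578).

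A second tested Rbl1 probe set ran the opposite way. By 1425166_at the signal was 213, 232 and 254 in untreated wild type, 216, 280.2 and 223 in untreated knockout, 186 and 145 in wild type with Shh, and 127 and 124 in knockout with Shh. All 4 Shh arrays lay below all 6 untreated ones. In the fit on every probe set this one fell with Shh by 0.50 ± 0.16 in wild type (adjusted p = 0.0422) and by 0.92 ± 0.16 in knockout cells (adjusted p = 0.00391), while 1424156_at gave 0.69 (adjusted p = 0.00146) and 0.27 (adjusted p = 0.0926). The direction for Rbl1 therefore depends on the probe set, and averaging all of its probe sets gave -0.053 in wild type and -0.12 in knockout cells. Which transcripts each probe set reads was not looked into. The others, 1432604_at and 1454293_at, lay below the filter, with highest signals of 41.3 and 43.0. Over all 16 tested probe sets of the 10 genes, 6 were higher and 1 lower with Shh in wild type, where 9.82% of all probe sets were called higher and 17.2% lower, and 1 was higher and 1 lower in knockout cells, where 7.62% were called higher and 13.6% lower.

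**Figure D2:**
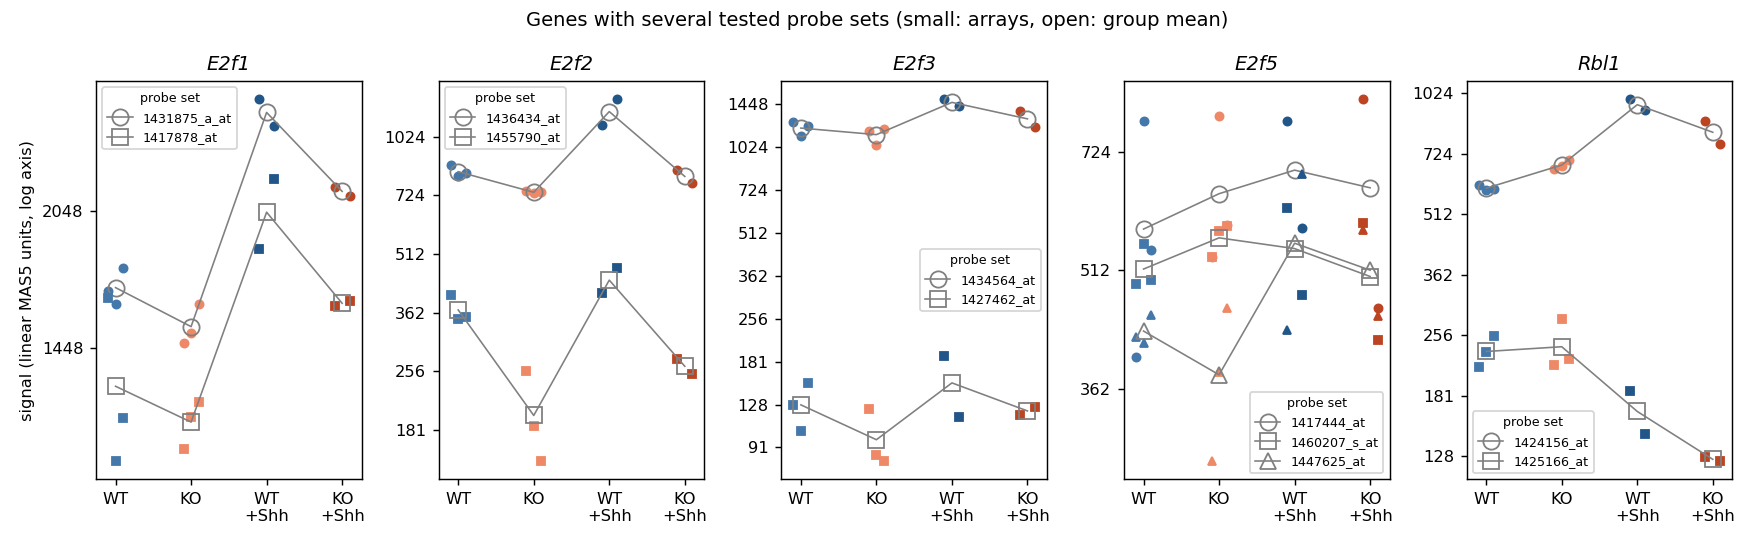
Signal (linear MAS5 units) on a log axis of the 5 genes with several tested probe sets, in wild type (WT) and Bmi1 knockout (KO) cultures without and with Shh. Small symbols are arrays and open symbols joined by lines are group means. The 2 Rbl1 probe sets run in opposite directions with Shh, and both E2f2 probe sets are lower in the knockout.

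The size of a log2 difference also depends on how the arrays are scaled. When each array was centred on its own median, the median of all genes moved to 0.33 in wild type and 0.29 in knockout cells, and all 10 genes were positive with Shh, so that the sign of Rb1 turned. Under it the median over the 10 genes was 0.83 in wild type and 0.63 in the knockout, and 8 of them were called higher in each. Of all tested genes 45.4% were then called higher in wild type and 38.1% in knockout cells, beside 14% and 11% as deposited. Under that centring 80.7% of all calls in wild type and 79.4% in knockout cells were higher, beside 41.3% and 39.4% as deposited. Averaged over both genotypes, 8 of the 10 genes were called higher with Shh as deposited, against 20.9% of all genes (47.1% in either direction), and E2f5 and Rb1 were not.

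**Figure D3:**
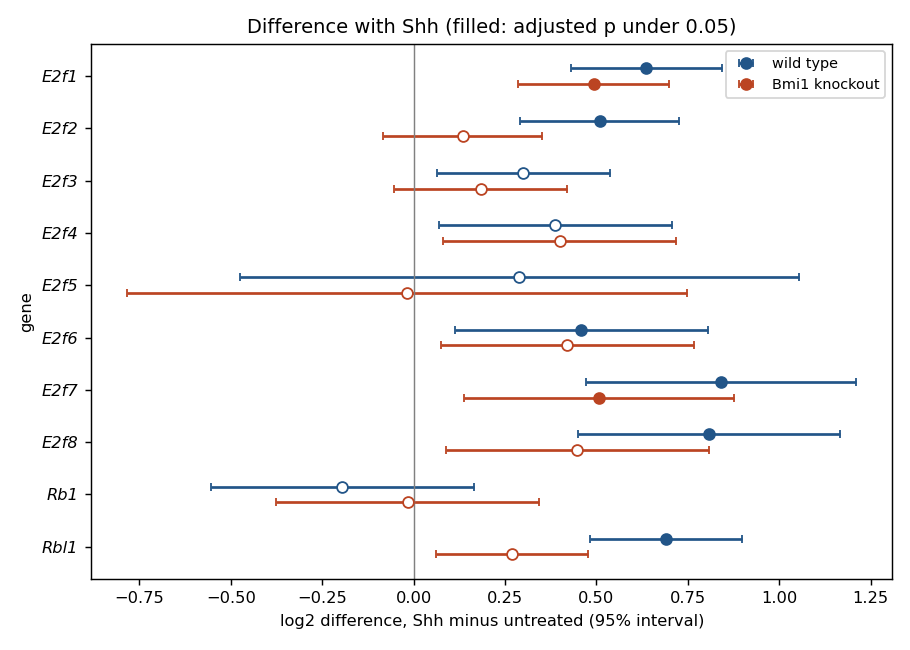
Log2 difference with Shh (horizontal axis, Shh minus untreated) of the 10 genes in wild type and Bmi1 knockout cells, with 95% intervals. Filled points passed an adjusted p of 0.05. In wild type 6 genes passed and in the knockout E2f1 and E2f7. The intervals of the genotypes overlap for each gene except Rbl1 (0.482 to 0.898 in wild type, 0.060 to 0.476 in the knockout), whose interaction did not pass.

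Whether Bmi1 changes the response to Shh is the question in the title of the series, and it was tested as the interaction of genotype and Shh. For 0 of the 10 genes did the interaction pass, in a comparison that called 0.00877% of all tested genes by limma with adjustment, 1 gene, and 561 genes, or 4.92%, at an unadjusted p under 0.05 (2 of the 10). Log2 interactions were positive for 2 of the 10 genes, beside 50.2% of all tested genes. They were negative, a smaller difference with Shh in the knockout, for the others, with a median of -0.23 beside 0.00 over all genes. Rbl1 (-0.42 ± 0.13, unadjusted p = 0.0101, adjusted p = 0.805) and E2f2 (-0.37 ± 0.14, unadjusted p = 0.0220, adjusted p = 0.933) had the largest, and E2f8 (-0.36 ± 0.22) and E2f7 (-0.33 ± 0.23) followed with both adjusted values at 1. For E2f2 the sign turned with the probe set, as 1455790_at gave 0.20 ± 0.29 (unadjusted p = 0.502). So E2f2, E2f6, E2f8 and Rbl1 passed in wild type and not in knockout cells without a difference between the genotypes being shown. The 2 Shh comparisons use different arrays, but each shares arrays with the genotype comparisons.

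The comparison of genotypes asked which transcripts differ without Bmi1. Without Shh 0 of the 10 genes passed, where 0.377% of all tested genes did, and 1 of them, Rbl1, had an unadjusted p under 0.05 (log2 difference 0.19 ± 0.08, adjusted p = 0.557) beside 8.68% of all genes. With Shh 0 passed again, where 0.728% did, and 3 had an unadjusted p under 0.05 beside 9.76% of all genes. These were E2f2 (-0.55 ± 0.10, adjusted p = 0.0604), E2f1 (-0.29 ± 0.10, adjusted p = 0.341) and Rbl1 (-0.23 ± 0.10, adjusted p = 0.504). In that comparison 5 of the 10 genes (E2f1, E2f2, E2f3, E2f8 and Rbl1) had both knockout arrays below both wild type arrays, as did 16.8% of all genes. For E2f2 the value with Shh passed when no filter on signal was used, with a stricter filter on dim genes or with a trended prior (adjusted p down to 0.0291).

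Averaged over both conditions, E2f2 was the 1 gene of the 10 that differed between genotypes. It was lower in the knockout by a log2 difference of -0.36 ± 0.07 (0.778 times the wild type level, adjusted p = 0.0376), where 0.324% of all tested genes were called lower and 1.54% in either direction. In the fit on every probe set, its dimmer probe set 1455790_at gave -0.83 ± 0.14 (adjusted p = 0.0416) and 1436434_at gave -0.36 with an adjusted p of 0.0727, and 0.138% of all probe sets were called lower. All 5 knockout arrays lay below the wild type arrays of their own condition by both probe sets. The call was lost with the paired arrays (adjusted p = 0.0846), and without any one of replicates 1, 2, 4, 5, 6, 8, 9 and 10, with an adjusted p of up to 0.139 without replicate 9. Microglia markers were also lower in the knockout, where the 10 genes summed to a signal of 6157 to 6910 beside 7438 to 10775 in wild type without Shh and to 2684 to 3834 beside 4456 to 4897 with Shh, 3 of the 10 being called lower on average. Interneuron markers went the other way, with 3 of 6 called higher on average (7928 to 10354 beside 6760 to 9144 without Shh, 5682 to 6211 beside 4394 to 4862 with Shh). Postmitotic granule neuron sums were lower in the knockout without overlap in both conditions, with 0 of 5 called. Oligodendrocyte markers were called higher in the knockout for 2 of 7 on average and 3 of 7 with Shh, and astrocyte sums with Shh were 27953 to 30645 beside 22332 to 24257, with 2 of 10 called higher there and 0 on average. Of the granule precursor markers 0 of 10 were called. The part of these shifts in the E2f2 difference was not tested.

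**Figure D4:**
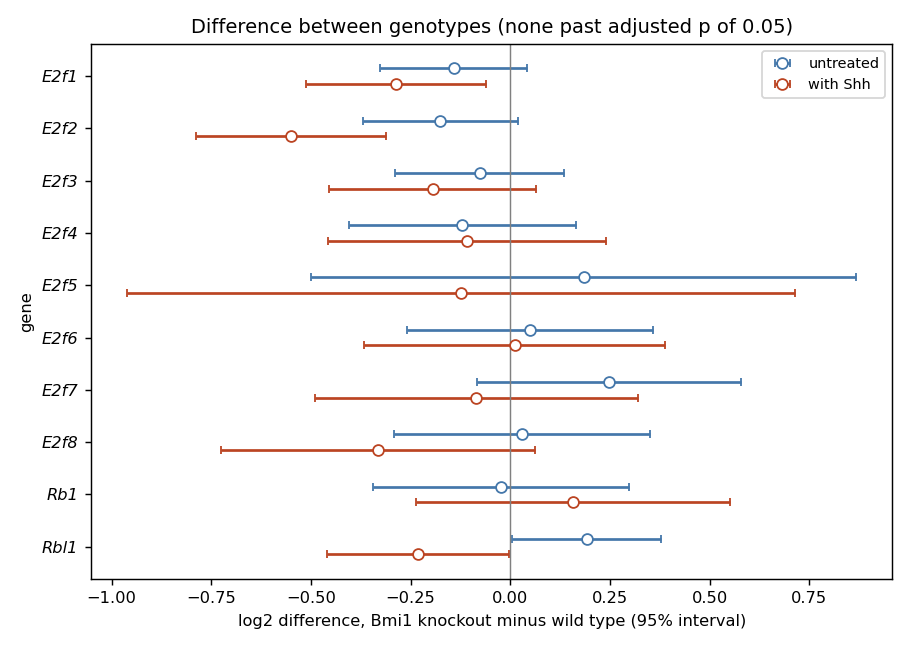
Log2 difference between genotypes (horizontal axis, Bmi1 knockout minus wild type) of the 10 genes without and with Shh, with 95% intervals. Open points did not pass an adjusted p of 0.05, and none passed. E2f2 with Shh lies farthest from 0, and Rbl1 changes sides between the conditions.

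The genes around the E2Fs were grouped into lists by textbook role, with earlier results of these data known. Each list is given by its counts, to be read against the 14% of all tested genes called higher with Shh in wild type and the 11% in knockout cells. Of 36 tested target genes of the G1 to S transition and DNA synthesis, 25 rose and 0 fell with Shh in wild type (median log2 difference 0.48), and 10 rose and 1 fell in knockout cells (median 0.25). Mcm10, a replication initiation factor, rose 2.44-fold in wild type (log2 1.29 ± 0.13, adjusted p = 0.000107) and 1.82-fold in the knockout (0.87 ± 0.13, adjusted p = 0.00117). The DNA polymerase subunit Pole2 (log2 1.16 and 0.91), the helicase component Cdc45 (1.15 and 0.96) and the ribonucleotide reductase subunit Rrm2 (0.78 and 0.61) rose in both. The 1 gene that fell in the knockout was the uracil repair enzyme Ung (-0.63), named after its value was seen. The log2 interaction was positive for 1 of the 36 genes, beside 50.2% of all tested genes, and negative for the others, and 0 passed. These values share the same 10 arrays, so their signs are not independent. With Shh 0 of the 36 passed between genotypes, with a median of -0.20.

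**Figure D5:**
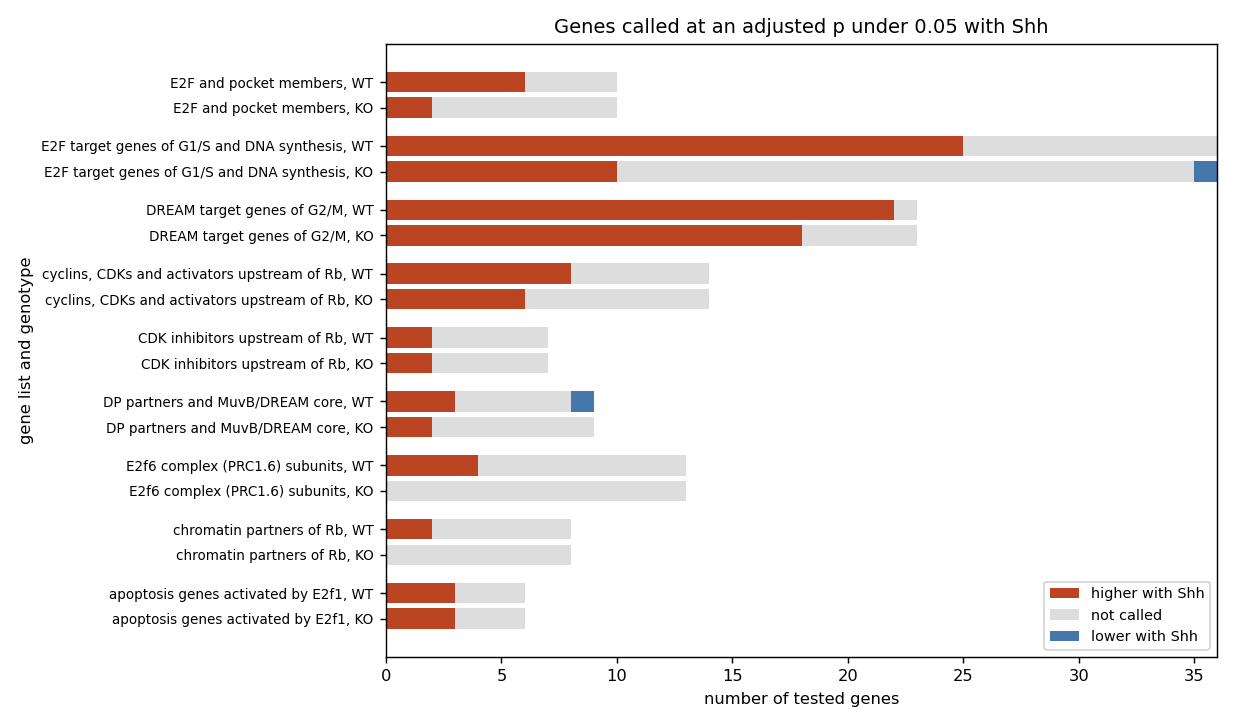
Number of tested genes (horizontal axis) called higher, lower or not called with Shh at an adjusted p under 0.05, for the 10 E2F and pocket protein genes and the lists around them, in wild type (WT) and Bmi1 knockout (KO) cells. The list of G2 and mitosis genes was called higher almost throughout, 22 of 23 in wild type and 18 of 23 in the knockout.

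Genes of G2 and mitosis that the DREAM complex (E2f4, p130 or p107 and the MuvB core) holds down in resting cells were mostly called higher in both genotypes. With Shh 22 of 23 rose in wild type (median 0.74) and 18 of 23 in knockout cells (median 0.52), and 0 fell. The mitotic kinase Aurka rose 2.87-fold in wild type (log2 1.52 ± 0.10, adjusted p = 1.62e-05) and 2.43-fold in the knockout (1.28 ± 0.10, adjusted p = 5.73e-05). Kif20a, a kinesin of cytokinesis (1.44 and 1.08), the kinase Plk1 (1.40 and 1.00) and Cdk1 (1.16 and 0.89) rose in both. The 1 gene of the list that was not called in wild type was Mki67 (0.14), named after its value was seen. Among the DP partners and the MuvB and DREAM core, 9 tested, 3 rose and 1 fell in wild type and 2 rose in the knockout. Lin54, the DNA-binding subunit that reads the CHR, rose by 0.83 and 0.59, and its partner Lin37 by 0.73 and 0.41. Mybl2, the Myb protein that turns MuvB into an activator, rose by 0.42 in wild type. Tfdp2, a DP partner, fell by 0.42 in wild type (adjusted p = 0.0189, -0.32 in the knockout with adjusted p = 0.0673). Rbl2, which encodes p130, gave 0.22 and 0.23 and did not pass.

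Upstream of the pocket proteins, 8 of 14 cyclins, CDKs and their activators rose with Shh in wild type and 6 of 14 in knockout cells, and 0 fell. Ccnd1, the cyclin D1 gene, went from 3360 ± 236 (SD, n = 3) to 6074 ± 343 (SD, n = 2) in wild type and from 4682 ± 534 to 6657 ± 995 in the knockout by 1417420_at. It rose by 0.86 (adjusted p = 0.00142) and 0.51 (adjusted p = 0.0219). Ccnd3 rose in wild type (0.28, adjusted p = 0.0416). Ccnd2, by its brightest probe set, passed in neither genotype (0.37 and 0.36, adjusted p = 0.0530 and 0.0687). Averaged over both it was called higher (0.37, adjusted p = 0.00973). A dimmer Ccnd2 probe set read 6655 to 7813 without and 10029 to 10610 with Shh in wild type. In the knockout it read 6566 to 7546 and 9799 to 9983. Every Ccnd2 probe set had its Shh arrays above the untreated ones in each genotype, except the dimmest, which overlapped in wild type. The cyclin E genes parted, with Ccne2 up by 1.25 and 0.91 and Ccne1 at 0.09 and -0.14. Cdk6 rose by 0.79 and 0.59, and Skp2, which targets p27 for degradation, by 0.80 and 0.92. Cdk6 was also higher in the knockout on average over both conditions (0.43, adjusted p = 0.0289).

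All 7 genes of the CDK inhibitor list were tested. The p21 gene Cdkn1a rose with Shh by 1.44 in wild type and 0.85 in knockout cells, and was 4.94-fold higher in the knockout without Shh (adjusted p = 0.000246) and 3.27-fold with it (adjusted p = 0.00474). Cdkn2a, which encodes p16Ink4a and p19Arf, was at 24.0 and 31.1 in wild type and at 329 and 451 in knockout cultures with Shh (adjusted p = 0.000131), and was higher in the knockout without Shh as well (adjusted p = 9.56e-05). No fold is given, since the wild type signals lay near the floor of 20.9. Cdkn2d, the p19Ink4d gene, rose with Shh by 0.85 and 0.60. The p15 gene Cdkn2b was at 68.9 ± 46.0 (SD, n = 3) in wild type and 330.0 ± 87.4 (SD, n = 3) in knockout cultures without Shh, a log2 difference of 2.50 ± 0.55 that did not pass (adjusted p = 0.148). Cdkn1b, Cdkn1c and Cdkn2c passed in none of the 4 Shh and genotype comparisons, at log2 differences between -0.51 and 0.23.

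Around E2f6, 4 of 13 tested PRC1.6 subunits rose with Shh in wild type and 0 of 13 in the knockout. They were Max (0.66, adjusted p = 0.0151), Hdac1 (0.56, adjusted p = 0.0184), Mga (0.54, adjusted p = 0.0464) and Wdr5 (0.38, adjusted p = 0.0134), and in the knockout they gave 0.51, 0.45, 0.50 and 0.06. Of 7 germline genes on the array that E2f6 is known to hold down, 6 lay below the filter, and the cohesin subunit Stag3 rose in wild type (0.69, adjusted p = 0.00831). Among 8 tested chromatin partners of Rb, Arid4a (0.85, adjusted p = 0.00812) and Hdac1 rose in wild type and 0 passed in the knockout. Of all tested genes 14% were called higher in wild type, and neither count was tested against that share. Of 6 tested apoptosis genes that E2f1 can activate, Trp73 (1.28 and 1.34), Apaf1 (0.60 and 0.57) and Bbc3 (0.40 and 0.48) rose with Shh in both genotypes. Bbc3, which encodes Puma, was also higher in the knockout, at 588 ± 45.4 beside 334 ± 44.3 (SD, n = 3) without Shh (adjusted p = 0.0150) and 819 ± 25.1 beside 439 ± 15.9 (SD, n = 2) with it (adjusted p = 0.0221).

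Across the 10 arrays, E2f6, E2f7 and E2f8 varied together, with Pearson r of 0.93 for E2f6 with E2f7, 0.93 for E2f6 with E2f8 and 0.91 for E2f7 with E2f8. With group means taken off these were 0.82, 0.96 and 0.73, so their replicates within a group also ran in parallel. E2f5 and Rb1 did the same (0.65, and 0.87 with group means taken off), while E2f1 with E2f3 gave 0.90 and 0.50. These values describe 10 arrays that share the group differences and the scaling, and carry no test. Over all tested genes, the pattern of E2f8 was nearest to that of Gpsm2 (0.993), Mthfd1l (0.982) and Slbp (0.978), the last a gene of the target list. Rbl1 was nearest to Lrr1 (0.975) and the checkpoint kinase gene Chek1 (0.972), E2f7 to Ccdc43 (0.982) and E2f6 to Abl1 (0.969). E2f1 was nearest to Dtx3l (0.990), E2f2 to Atg3 (0.948), E2f3 to Ube2f (0.942), E2f4 to Med19 (0.980), E2f5 to Dctn6 (0.958) and Rb1 to Smarca2 (0.955).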

How the data were processed

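The deposited table held 1 array signal intensity per probe set and array on a linear scale, which the authors made with MAS5 in GCOS 1.2, per the submitters' processing notes. A floor was set at the 25th percentile of all values (20.9), and the deposited values were then used on the log2 scale with no further scaling. Gene symbols came from the platform annotation. Of 45101 probe sets, 64 controls, 932 with several symbols and 9160 with none were left out. The probe set of highest mean stood for its gene, which was tested where this mean reached the overall median of probe sets (6.25 on the log2 scale, signal 76.1). All 10 arrays entered 1 model of 4 group means, fitted with limma 3.58.1 (lmFit, eBayes) in R 4.3.3, with 6 residual and 3.11 prior degrees of freedom, and 7 two-sided contrasts with Benjamini-Hochberg adjustment. A second fit took every probe set on its own. The script was tested on simulated data. The number of arrays limits the precision.

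Replicate numbers run through the series and are not shared between groups. Untreated arrays of consecutive numbers (1 of each genotype) shared deviations from the group means, correlated at 0.278, 0.120 and 0.218. Other untreated pairings gave -0.265 to 0.0529. The Shh values were 0.160 for consecutive numbers and -0.160 for the other pairings. They cannot back the pairing, since in such small groups the deviations mirror each other and these values must be equal and opposite. Consecutive numbers were taken as pairs throughout, a pairing that rests on the untreated data. In the paired fit they were a fixed block for genotype effects (3 residual degrees of freedom) and a random block for Shh effects (consensus correlation 0.289).

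All probe sets of the 10 genes are named, whatever their values. From each of the other lists, up to 4 genes called with Shh in wild type by size are named, with every D and E cyclin and CDK inhibitor, and for each of the 10 genes those with the highest Pearson correlation. The genes and lists were chosen with earlier results of these data known. Alternatives were quantile or median scaling, other floors and filters, means over probe sets, every probe set, a trended robust prior, only the groups compared, the pairs, and leaving out arrays.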

Additional observations from a re-analysis of the deposited data

Results flagged for a closer look

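The Rbl1 probe set 1424156_at stood out because its genotype difference pointed in opposite directions without and with Shh on every array. All 3 untreated knockout arrays (665 to 699) lay above the 3 untreated wild type arrays (587 to 605), and both knockout arrays with Shh (764 and 875) lay below both wild type arrays with Shh (929 and 991). The log2 interaction was -0.42 ± 0.13 (SE), with an unadjusted p of 0.0101 and an adjusted p of 0.805 by limma, so it did not pass the test over all genes. In the fit with pairs the adjusted p was 0.537. The other tested Rbl1 probe set, 1425166_at, had an interaction of -0.42 ± 0.22 (adjusted p = 1.00 over all probe sets), with its untreated genotypes overlapping.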

How the results depend on the processing

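The Shh calls of E2f1, E2f7 and E2f8 in wild type cells held in all 22 alternatives and that of Rbl1 in 21, while E2f6 was lost in 11 of 22, E2f7 in the knockout in 14 of 22 and E2f2 between genotypes in 11 of 21. Averaging all probe sets of a gene turned 5 values: Rbl1 to 0.0041 (genotype with Shh), -0.053 (Shh, wild type), -0.12 (Shh, knockout) and -0.085 (average Shh), and E2f6 to -0.16 (Shh, knockout). These averages take in probe sets below the filter, 1437914_at of E2f6 and 1432604_at and 1454293_at of Rbl1. For Rbl1 they also hold 1425166_at, which fell with Shh. The part of each probe set in the turned values was not tested. Of the values with an unadjusted p of 0.05 or more, 66 of 858 changed sign.
Genes of the 10 called with Shh in the knockout (2 as reported) numbered 8 with median centring, 5 with the 75th percentile filter, 4 with the trended prior, and 1 with averaged probe sets, only the groups compared, the replicate block of pairs, or without replicates 1 and 6. With averaged probe sets E2f1 (adjusted p = 0.143) and E2f7 (adjusted p = 0.0506) were lost and the 1 call was Rb1, lower (adjusted p = 0.0488). The Rb1 average takes in 1444400_at, which lay below the filter. In wild type (6 as reported) averaged probe sets gave 3. Between genotypes with Shh (0 as reported), 1 was called with no filter, with the 75th percentile filter or with the trended prior. On average (1 as reported) 0 were called with the replicate block or without replicates 1 and 6.
Over all genes, Shh calls in wild type (3855) became 6424 with median centring and 2364 with the 75th percentile filter. Those in the knockout (3199) became 5475 and 1935, and average Shh calls (5376) became 3352 with that filter, which tests fewer genes. Genotype calls without Shh (43) became 82 with the trended prior, 23 with the replicate block and 10 without replicates 1 and 6. With Shh (83) they became 51 with quantile scaling, 48 with the 75th percentile filter, 134 with the trended prior, 3 with only the groups compared, 50 with the replicate block and 51 without replicates 1 and 6, and on average (176) 80 without replicates 1 and 6. The 1 interaction call became 3 with the floor at the 10th percentile and 0 with quantile scaling, median centring, no filter, the 75th percentile filter, averaged or single probe sets, the replicate block or without replicates 1 and 6. The replicate block changed no call of the 10 genes beyond those given for E2f2, E2f3 and E2f7.
Leaving out 1 array in turn gave 5 to 7 of the 10 genes with Shh in wild type, 1 to 2 in the knockout (1 without replicate 3, 4, 6, 7 or 9), 7 to 8 for average Shh, 0 to 1 for average genotype, and 0 for the other comparisons. Over all genes it gave 2380 (without replicate 9) to 3751 with Shh in wild type, 1893 (without replicate 8) to 3193 in the knockout (2045 without replicate 10), 4491 to 5246 for average Shh, 19 (without replicate 6) to 50 between untreated genotypes, 29 (without replicate 8) to 91 with Shh, 82 (without replicate 9) to 219 for average genotype and 0 to 1 for the interaction. Groups of 2 arrays then hold a single array, assumed to vary like the others. With 2 or 3 arrays a group, wide intervals such as that of E2f5 limit what can be seen.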
